A study of Mus musculus with 30 samples.

Results

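Transcripts that mark the GABAergic interneurons of the nucleus accumbens were followed through RNA pulled down with tagged ribosomes of medium spiny neurons. The members were 10 genes given by symbol (Sst, Npy, Nos1, Pvalb, Calb2, Vip, Cck, Th, Lhx6 and Kit), out of 55335 genes in the deposited counts. All 10 were found and all 10 passed the filter on low counts, which kept 19368 genes. The question was whether their level followed the neuron class that was tagged, the stress group, or other RNA in the same library that should not belong to the tagged class.

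Female D1-Cre-RT mice carried the tagged ribosomal protein (RiboTag, RT) in cells marked by the Drd1 driver, and their libraries are called D1. Female A2A-Cre-RT mice carried it in cells marked by the A2A driver, and their libraries are called D2. Mice of each line were Control, or went through chronic witness defeat stress (CWDS) and were classed as Resilient or Susceptible. There were 5 libraries in each of the 6 groups, 30 in all. A library held anti-HA immunoprecipitated polyribosome RNA of accumbens punches from 4 mice with like social interaction ratios, taken 24 h after the interaction test. The 2 classes came from different mouse lines, so line and class cannot be told apart. Reads before the pulldown were not analysed here, and a pulldown keeps some RNA of untagged cells.

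Most accumbens neurons are medium spiny neurons (MSNs), and interneurons are a small, mixed minority. One family makes somatostatin, neuropeptide Y and neuronal nitric oxide synthase. A fast-spiking family makes parvalbumin. Smaller families make calretinin, vasoactive intestinal peptide, cholecystokinin or tyrosine hydroxylase. The transcription factor LHX6 marks interneurons born in the medial ganglionic eminence, from which the somatostatin and parvalbumin families come.

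The classes were as labelled when the libraries were taken as groups. Over the 3 conditions Drd1, the D1 receptor gene, was higher in D1 by 2.33 on the log2 scale (SE 0.261, edgeR adjusted p 1.34e-07), and Adora2a, the adenosine A2A receptor gene, was at -2.73 (SE 0.160, edgeR adjusted p 4.30e-13). Pdyn and Tac1, peptide genes of D1 neurons, were at 2.88 and 1.43, and Drd2 and Penk, genes of D2 neurons, at -2.41 and -2.56. In all, 6 of 7 D1-class genes were higher and 5 of 5 D2-class genes lower in D1, with medians of 2.25 and -2.41. Gene counts per library were 28996168 to 65882152. D1 Susceptible replicate 1 was the shallowest, with 54.9% of its counts in the single feature Gm42418. D2 Susceptible replicates 1 and 2 held 15822 and 16525 genes with a count, against a median of 21135 over all libraries. D2 Control replicate 5 and D2 Resilient replicate 5 held the most D1-class RNA of the D2 libraries, at 1236 and 1858 CPM summed. The second value lay inside the D1 range of 1736 to 2609 CPM. D2 Resilient replicate 5 also held the least D2-class RNA of the D2 libraries, 4867 CPM, against a D2 median of 11415 CPM and a D1 maximum of 2771 CPM.

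The sequences just before the RefSeq start of these genes are shown first because several encode neuropeptides or enzymes known as targets of the factor CREB, which binds the cyclic AMP response element (CRE). In the 100 bases before the start, on either strand, the full element TGACGTCA was found for Sst and Th and its first 5 letters, TGACG, for Vip and Cck as well. Of 32851 such promoters 1.15% held the full element and 10.5% held TGACG, counting those inside a full element. RefSeq entries matched 9 of the 10 genes, Calb2 being the other. Capitals mark the match, and Cck holds it on the opposite strand, where it reads CGTCA. Sequences are from GRCm38.p6, 5′ to 3′ on the gene's strand.
Sst, chr16:23890845-23890944, minus strand: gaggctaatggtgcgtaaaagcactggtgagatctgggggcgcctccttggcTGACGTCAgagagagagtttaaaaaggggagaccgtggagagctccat
Th, chr7:142899996-142900095, minus strand: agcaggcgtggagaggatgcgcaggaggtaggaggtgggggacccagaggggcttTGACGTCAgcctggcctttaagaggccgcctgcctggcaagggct
Vip, chr10:5639118-5639217, plus strand: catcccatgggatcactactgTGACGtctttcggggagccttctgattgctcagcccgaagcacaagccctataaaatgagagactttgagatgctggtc
Cck, chr9:121495695-121495794, minus strand: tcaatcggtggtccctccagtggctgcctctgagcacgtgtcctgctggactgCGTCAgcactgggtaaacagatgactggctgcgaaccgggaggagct
The full element lay at -48 to -41 from the start of Sst and at -45 to -38 from that of Th. A match is a description of letters and not a sign of binding. As given below, the 2 genes with the full element differed between the classes in opposite directions.

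Levels are given in CPM, the count of a gene relative to the TMM-scaled size of its library. Divided by the exon length of each gene, the mean levels over 30 libraries were 223 CPM per kb for Sst, 85.7 for Cck, 59.2 for Npy, 10.2 for Calb2, 9.36 for Pvalb, 3.84 for Th, 3.44 for Vip, 2.49 for Nos1, 1.94 for Lhx6 and 1.38 for Kit. The order of the first 4 was steady. Sst lay above Cck in 28 of 30 libraries, Cck above Npy in 29 and Npy above Calb2 in all 30. Further down, the order depended on the class. Calb2 lay above Pvalb in 4 of 15 D1 libraries and in 14 of 15 D2 libraries. Th lay above Vip in 0 of 15 D1 libraries and in 14 of 15 D2 libraries.

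All 10 genes differed between D1 and D2 over the mean of the 3 conditions, with 9 higher in D1 and Th lower, at an edgeR adjusted p under 0.05. Of all genes tested 29.3% differed, 13.8% higher and 15.5% lower in D1. The median log2 difference of the 10 was 1.65, against 0.0045 over all genes tested. The 10 were called in each of 38 alternative fits, the omission of the libraries named above included. Sst, Nos1 and Kit did not overlap between all 15 D1 and all 15 D2 libraries, as was the case for 1.18% of all genes. In bulk RNA, more cells of a type, more RNA per cell and more recovery in the pulldown cannot be told apart.

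Sst (ENSMUSG00000004366, chromosome 16, 23889573 to 23890958, minus strand, GRCm38), the gene of the inhibitory peptide somatostatin, had 200.4 to 333 CPM in the 15 D1 libraries, with a median of 240.3, and 46.0 to 188 CPM in the 15 D2 libraries, with a median of 51.97. No library of one class reached the other. The D1 Control libraries 1 to 5 held 333, 322, 269, 207 and 240.3 CPM. In D2 Control, replicate 5 stood at 188 CPM, and the other 4 at 55.9, 49.8, 88.4 and 80.2 CPM. In D2 Resilient, replicate 5 stood at 133 CPM, and the other 4 at 47.2, 46.4, 51.97 and 67.4 CPM. The 5 D2 Susceptible libraries lay close together, at 46.0, 57.1, 51.2, 49.9 and 47.2 CPM. The level was 3.66-fold higher in D1 (log2 difference 1.87, SE 0.164, edgeR adjusted p 1.01e-09).

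Npy (ENSMUSG00000029819, chromosome 6, 49822710 to 49829507, plus strand), the gene of neuropeptide Y, had 32.1 to 63.6 CPM in D1 (median 51.8) and 10.2 to 42.6 CPM in D2 (median 14.8). Only D2 Control replicate 5 entered the D1 range. The difference was 2.95-fold (log2 1.56, SE 0.134, edgeR adjusted p 2.34e-10). Nos1 (ENSMUSG00000029361, chromosome 5, 117781032 to 117958840, plus strand), the gene of neuronal nitric oxide synthase, marks the same family. It had 26.8 to 50.5 CPM in D1 (median 34.005) and 4.29 to 26.5 CPM in D2 (median 22.2), with no overlap. The D1 level was 1.82-fold higher (log2 0.86, SE 0.159, edgeR adjusted p 0.000125). Nos1 was lowest in the D2 Susceptible libraries 1 and 2, at 4.29 and 7.77 CPM, against 20.6, 19.8 and 22.7 CPM in the other 3. Without those 2 libraries the log2 difference was 0.72 (edgeR adjusted p 4.34e-07). Nos1 overlaps an antisense gene, and without a stated strand setting their reads cannot be told apart.

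Pvalb (ENSMUSG00000005716, chromosome 15, 78191114 to 78206400, minus strand) encodes parvalbumin, the calcium-binding protein of fast-spiking cells. Over the mean of the 3 conditions its class difference was the largest of the 10, though that of Vip was within its SE (log2 2.51, SE 0.207). Pvalb had 9.54 to 30.2 CPM in D1 (median 15.7) and 0.842 to 11.99 CPM in D2 (median 2.01). Of the D2 libraries, only D2 Control replicate 5 lay inside the D1 range. The level was 5.80-fold higher in D1 (log2 2.53, SE 0.281, edgeR adjusted p 5.95e-08). D2 counts of Pvalb were 55 to 836 per library, so the low D2 level was above the counting floor everywhere. Lhx6 (ENSMUSG00000026890, chromosome 2, 36081953 to 36105408, minus strand) had 9.33 to 19.3 CPM in D1 (median 13.9) and 2.20 to 10.8 CPM in D2 (median 3.36), a 3.34-fold difference (log2 1.74, SE 0.198, edgeR adjusted p 5.00e-08). Its 2 highest D2 values, 10.8 CPM in D2 Susceptible replicate 1 and 9.61 CPM in D2 Control replicate 5, overlapped the lowest D1 value. Kit (ENSMUSG00000005672, chromosome 5, 75574916 to 75656722, plus strand), the gene of the receptor for stem cell factor, had 13.0025 to 26.3 CPM in D1 (median 19.1) and 2.81 to 9.92 CPM in D2 (median 4.43). It did not overlap between classes and was 3.91-fold higher in D1 (log2 1.97, SE 0.144, edgeR adjusted p 5.67e-12).

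Vip (ENSMUSG00000019772, chromosome 10, 5639218 to 5647617, plus strand), the gene of vasoactive intestinal peptide, had 12.4 to 28.1 CPM in D1 (median 18.9) and 1.18 to 14.7 CPM in D2 (median 2.91). The difference was 5.68-fold (log2 2.51, SE 0.207, edgeR adjusted p 1.21e-10), and again D2 Control replicate 5 was the D2 library that reached the D1 range. Cck (ENSMUSG00000032532, chromosome 9, 121489824 to 121495694, minus strand) encodes cholecystokinin, a peptide that many excitatory cortical neurons also make. It had 106 to 167 CPM in D1 (median 146) and 31.5 to 150.3 CPM in D2 (median 74.9), a 1.81-fold difference (log2 0.86, SE 0.130, edgeR adjusted p 8.30e-06). D2 Control replicates 4 and 5, at 149 and 150.3 CPM, lay within the D1 range. Calb2 (ENSMUSG00000003657, chromosome 8, 110137502 to 110168210, minus strand), the gene of the calcium-binding protein calretinin, differed least, with 13.5 to 30.1 CPM in D1 and 6.65 to 29.7 CPM in D2. The classes overlapped along most of that range, and the level was 1.40-fold higher in D1 (log2 0.48, SE 0.156, edgeR adjusted p 0.0199).

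Th (ENSMUSG00000000214, chromosome 7, 142892752 to 142931128, minus strand), the gene of tyrosine hydroxylase, the first enzyme of dopamine synthesis, was the 1 member higher in D2. It had 3.33 to 8.62 CPM in D1 (median 6.10) and 2.43 to 19.0 CPM in D2 (median 12.3), a 1.97-fold higher D2 level (log2 D1 minus D2 -0.98, SE 0.175, edgeR adjusted p 6.61e-05). In D2 Susceptible, replicate 1 held 2.43 CPM and the other 4 held 10.8, 12.03, 13.7 and 12.3 CPM. Without D2 Susceptible replicates 1 and 2 the log2 difference was -1.06 (edgeR adjusted p 1.50e-07).

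**Figure D1:**
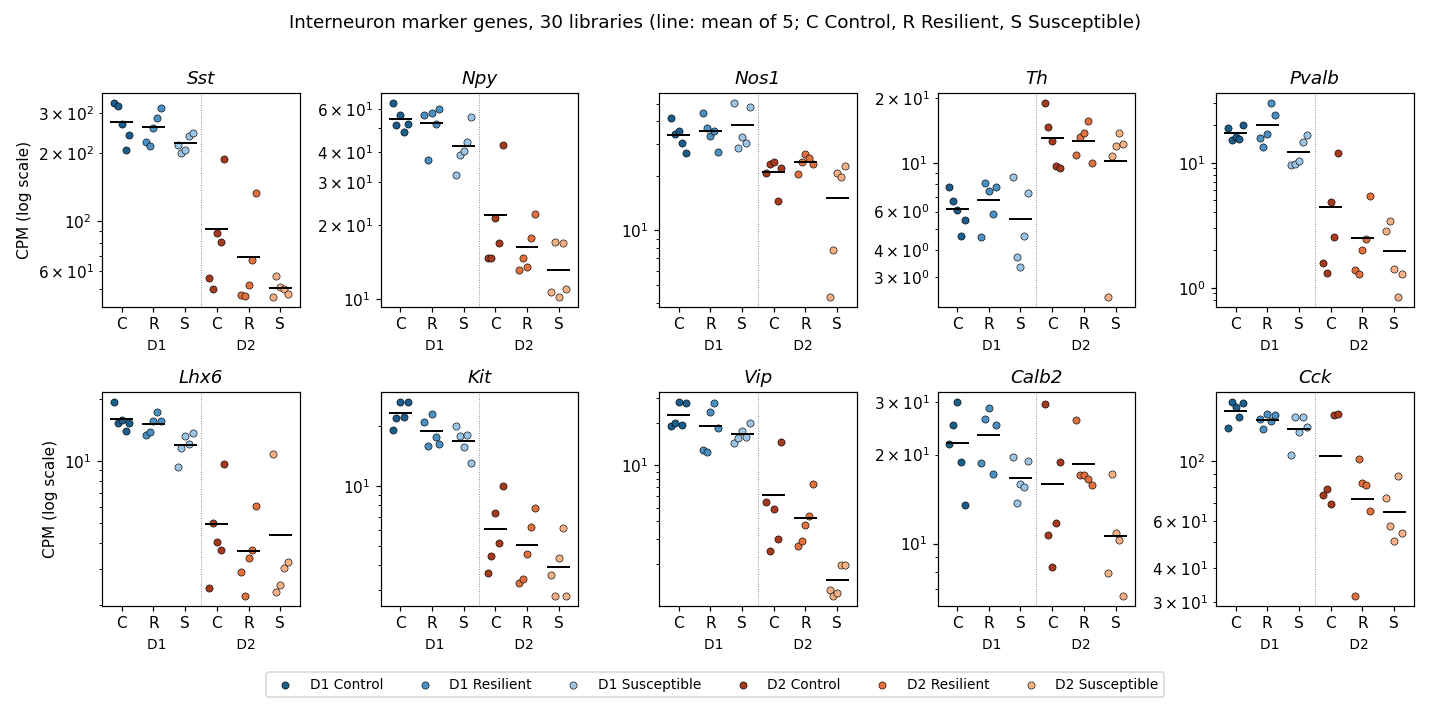
Level of each marker gene in CPM (vertical, log scale) in every library, by class and condition (horizontal), with replicates 1 to 5 from left to right and a line at the mean of 5 libraries. Sst, Nos1 and Kit do not overlap between the 15 D1 and the 15 D2 libraries, and Th is the 1 gene higher in D2.

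The direction was the same within each condition, where 5 libraries of each class were compared. In Control, 7 of the 10 passed, 6 higher in D1 (Sst, Npy, Pvalb, Vip, Lhx6 and Kit) and Th lower, while 8.30% of all genes passed, 3.51% higher and 4.80% lower. Log2 differences were 0.69 for Nos1 (edgeR adjusted p 0.134), 0.56 for Cck (edgeR adjusted p 0.138) and 0.47 for Calb2 (edgeR adjusted p 0.369). Over 19 alternatives Nos1 passed in 4, Cck in 3 and Calb2 in 1, and Pvalb lost its call in 1. The call of Th in Control was lost without D1 Control replicate 3, 4 or 5 or D2 Control replicate 1 (edgeR adjusted p 0.0558, 0.0714, 0.0606 and 0.0800). Cck passed without D2 Control replicate 5 (log2 0.74, edgeR adjusted p 0.0404), and Calb2 passed without D2 Control replicate 1 (log2 0.83, edgeR adjusted p 0.0408).

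In Resilient, 7 passed, all higher in D1, while 6.65% of all genes passed, 2.75% higher and 3.90% lower. They were the 6 of the Control comparison and Cck (log2 0.98, SE 0.226, edgeR adjusted p 0.00517). Th was at -0.91 (edgeR adjusted p 0.0661). In Susceptible, 9 passed, 8 higher in D1 and Th lower, while 23.9% of all genes passed, 10.5% higher and 13.4% lower. Nos1 was at 1.33 (edgeR adjusted p 0.00126) and at 0.87 without D2 Susceptible replicates 1 and 2 (edgeR adjusted p 0.00143). In a fit of the 2 Susceptible groups alone, 3 of the 9 calls were lost, those of Nos1, Lhx6 and Th (edgeR adjusted p 0.0664, 0.0556 and 0.214). Calb2 was the other, at 0.65 (edgeR adjusted p 0.0799), and it passed without D2 Susceptible replicate 2 (log2 0.92, edgeR adjusted p 0.0226). Th was at -0.92 (edgeR adjusted p 0.0274) and lost its call without D1 Susceptible replicate 2, 3 or 4 or D2 Susceptible replicate 2, 4 or 5 (edgeR adjusted p 0.0528 to 0.0898). Vip differed most in Susceptible, at 3.45 (SE 0.376, edgeR adjusted p 3.06e-07), against 1.89 in Control and 2.17 in Resilient. The 5 D1 libraries lay wholly above the 5 D2 libraries for 7 genes in Control, 8 in Resilient and 7 in Susceptible. Over all genes 11.7%, 9.70% and 8.92% did not overlap in either direction in these 3 comparisons, with 5.62%, 4.69% and 4.80% higher in D1. Th lay wholly lower in D1 in Control and in Resilient, as did 6.05% and 5.01% of all genes, and in Susceptible, where 4.12% did, no member lay wholly lower.

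Further genes of interneurons followed the members. Of 16 other genes of interneuron development and physiology, 15 were higher in D1 over the 3 conditions, with a median log2 difference of 1.32. Kcnc2 and Kcnc1, potassium channel genes of fast-spiking cells, were higher by 2.08 and 0.64 (edgeR adjusted p 1.52e-11 and 6.75e-09). Erbb4, the neuregulin receptor gene of many interneurons, was higher by 1.31 (edgeR adjusted p 9.25e-09). Of 7 genes shared by both MSN classes, 5 were lower in D1, with a median log2 difference of -0.31.

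Markers of other cells differed between the classes at the same time. Of 6 genes of excitatory projection neurons, all 6 were higher in D1 (median log2 1.09), among them Neurod6 at 1.46, Slc17a7 at 1.14 and Tbr1 at 1.04 (edgeR adjusted p 1.28e-08, 6.41e-08 and 4.68e-07). Summed, they reached 784 ± 112 CPM (SD) over the D1 libraries and 369 ± 110 CPM over the D2 libraries, with ranges of 510 to 982 and 174 to 574, and none of the 6 was at 0 in any library. Of 4 genes of cholinergic interneurons, 1 passed, Slc5a7 (the choline transporter gene) at 0.98 (edgeR adjusted p 0.0434). That count was 3 without D2 Resilient replicate 5 and 2 without D2 Susceptible replicate 5. It was 0 when 1 of 16 other libraries was left out, namely D1 Control 1, 2 or 4, D1 Resilient 2 or 5, D1 Susceptible 1, 3 or 5, D2 Control 1, 2, 3 or 4, or D2 Resilient 1, 2, 3 or 4. Summed, they spanned 3.28 to 9.96 CPM in D1 and 1.76 to 13.8 CPM in D2, and 3 of the 4 were at 0 in some D2 library. Glial and vascular genes went the other way. All 7 oligodendrocyte genes, 5 of 6 astrocyte genes, 4 of 7 microglial genes and all 6 endothelial genes were lower in D1, with medians of -0.68, -1.43, -0.62 and -3.27. The vascular genes Pecam1 and Flt1 were at -3.07 and -3.65 (edgeR adjusted p 2.08e-14 and 4.74e-14). Summed, the 6 endothelial genes spanned 11.6 to 35.1 CPM in D1 and 53.3 to 318 CPM in D2. What part other cells' RNA had in the class difference of the markers was not tested by these counts. The slopes below give how far it moved with them from library to library within a group.

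**Figure D2:**
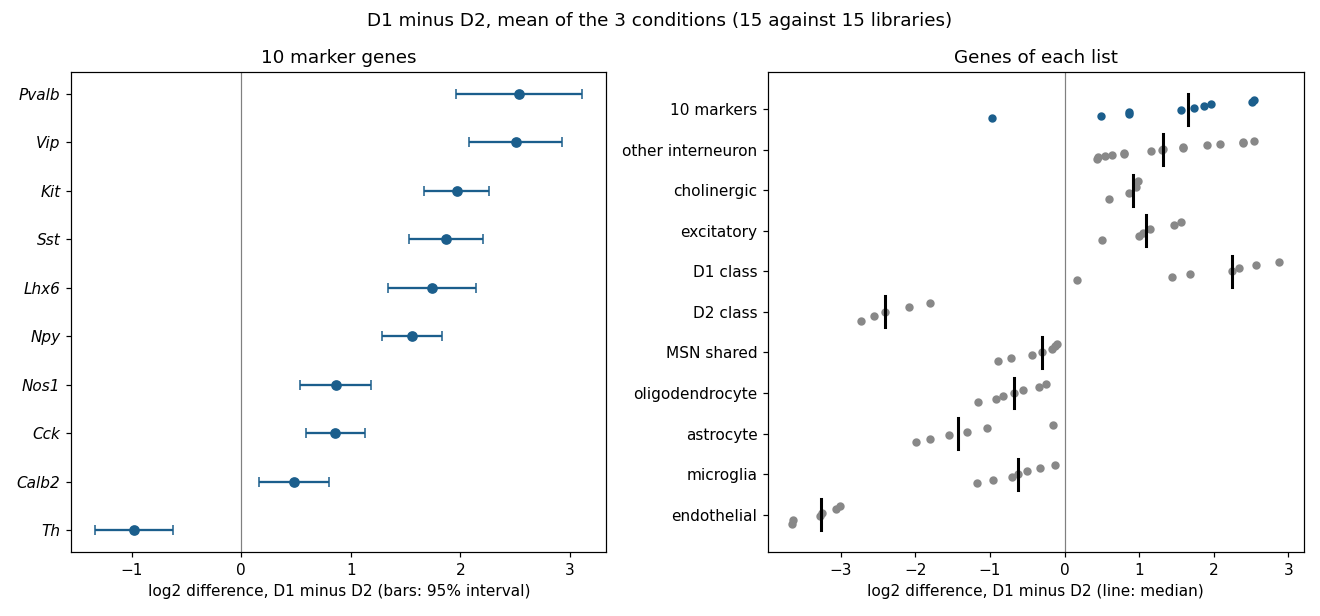
Log2 difference of D1 minus D2 over the mean of the 3 conditions (horizontal) for each marker gene with its 95% interval (left) and for each gene of the lists described with the list's median as a line (right). The markers have a median of 1.65, close to that of the other interneuron genes at 1.32, and the endothelial genes have a median of -3.27.

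The markers did not all vary together. Correlations are across 30 libraries of log2 CPM after each group's mean was removed, so they describe variation within groups. The points share library depth and composition, and no p is given. Sst went with Pvalb (Pearson r 0.83, Spearman rho 0.72, and r 0.69 without the 2 libraries farthest from the median of Sst), with Npy (r 0.81, rho 0.75, r 0.67 without 2) and with Vip (r 0.72, rho 0.46, r 0.43 without 2). Sst did not go with Nos1, though both mark one family (r 0.03, rho 0.07). Nos1 went with Th instead (r 0.73, rho 0.56, r 0.48 without 2), and both were lowest in D2 Susceptible replicate 1. Th and Lhx6 went apart (r -0.64, rho -0.32, r -0.38 without 2), and Lhx6 was highest of the D2 libraries in that same library. Within the 15 D2 libraries the r of Th and Lhx6 was -0.79 (-0.46 without 2). Within the 15 D1 libraries it was -0.02 (0.58 without 2), so the pair went apart in D2 only. Sst and Kit had an r of -0.34 within the 15 D1 libraries and 0.77 within the 15 D2 libraries. D2 Control replicate 5 was the highest of the 15 D2 libraries for 6 of the 10 genes (Sst, Npy, Pvalb, Vip, Cck and Kit).

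The genes closest to each marker, by the same r over 30 libraries, were found among all genes with a unique symbol. For Sst they were Elfn1 (r 0.86), a synaptic protein gene of somatostatin interneurons, and Slc17a8 (r 0.85), the vesicular glutamate transporter 3 gene. For Pvalb they were Kcnc2 (r 0.86) and Crhbp (r 0.84), the gene of the binding protein for corticotropin-releasing hormone. For Npy they were Sst and Kcnc2 (r 0.79), and for Vip Lingo2 (r 0.74) and Sst. Calb2 was closest to Gng4 (r 0.80) and to Sp8 (r 0.73), a transcription factor gene, and Cck to Cabp7 (r 0.91) and Me1 (r 0.89). Kit was closest to Isl1 (r 0.79), a transcription factor gene of D1 neurons, and to Gfra1 (r 0.74). For Nos1 (Zfp646, r 0.94; Ttc17, r 0.93), Th (Col4a2, r 0.87; Pcnx3, r 0.86) and Lhx6 (Mtss1, r 0.81; Sfxn1, r 0.76) the likeness rested partly on libraries that stand apart. Over the 26 libraries left without 4 of them, these 6 values were 0.77, 0.72, 0.60, 0.65, 0.63 and 0.63. D2 Control replicate 5 was not among those 4, so the 26 libraries do not show how far any likeness rested on it. For Vip, Spearman rho over 30 libraries was 0.53 with Lingo2 and 0.46 with Sst.

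To see whether a marker followed RNA that the tag should leave out, 3 indices were computed per library as mean log2 CPM, and each was entered into the fit beside the 6 groups. The other-class MSN index is the mean of 5 D2-class genes in a D1 library and of 7 D1-class genes in a D2 library. The non-neuronal index is the mean of the 26 glial and endothelial genes, and the excitatory-neuron index that of the 6 excitatory genes. A slope is the log2 change of a gene per log2 unit of the index within groups.

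Sst rose with the other-class MSN index, with a slope of 0.51 (SE 0.0839, 95% interval 0.34 to 0.69, edgeR adjusted p 0.00792). It was 1 of 8 genes called (0.0413% of those tested), and 2 of these 8, Pdyn and Isl1, are in the index itself. Slopes with an unadjusted p under 0.05 that did not pass the adjustment were 0.61 for Pvalb, 0.52 for Vip, 0.51 for Lhx6, 0.39 for Kit and 0.30 for Npy (edgeR adjusted p 0.590, 0.357, 0.364, 0.357 and 0.639). Slopes of Cck (0.03) and Th (0.03) were close to 0, with 95% intervals of -0.21 to 0.27 and -0.30 to 0.37. Nos1 was at 0.22 (-0.08 to 0.52) and Calb2 at -0.13 (-0.41 to 0.15). For Calb2, Cck, Th, Vip and Kit the value pools slopes of opposite sign in the 2 classes. Those of Calb2 were 0.40 in the D1 libraries alone (edgeR unadjusted p 0.0452, adjusted p 0.248) and -0.26 in the D2 libraries alone (edgeR adjusted p 0.983). Those of Cck were -0.11 in D1 and 0.082 in D2, and those of Th, Vip and Kit are given below. The median slope of the 10 was 0.34, against 0.0093 over all genes tested. The 4 cholinergic genes had slopes of 0.76 to 1.20, and Slc5a7 passed (1.20, edgeR adjusted p 0.0331). Their sum was 13.8 CPM in D2 Resilient replicate 5, which had the highest other-class index of the D2 libraries (6.66). In the rest of that group it was 2.27 to 3.37 CPM, and 3 of these genes were at 0 in some D2 library. How far the cholinergic slopes rested on that replicate is not reported here.

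The Sst slope rested on few libraries. D2 Resilient replicate 5 and D2 Control replicate 5 had the highest other-class index of the D2 libraries, at 6.66 and 6.18, where the other 13 lay at 2.91 to 5.44. Without D2 Resilient replicate 5 the Sst slope was 0.45 (edgeR adjusted p 0.387), and without both it was 0.23 (edgeR adjusted p 0.326). Over 41 alternatives its call was lost in 5 and kept in 36. It was kept without D2 Control replicate 5 alone (0.41). It was also kept without D2 Resilient replicate 5, D1 Susceptible replicate 1 and D2 Susceptible replicates 1 and 2 together. Without D2 Susceptible replicates 1 and 2 the Sst slope was 0.65 (edgeR adjusted p 3.36e-05), and Npy (0.43), Pvalb (0.91) and Lhx6 (0.48) passed too (edgeR adjusted p 0.0457, 0.00803 and 0.0139). Lhx6 passed also without D2 Susceptible replicate 1 alone (0.45, edgeR adjusted p 0.0349), and Pvalb without D2 Susceptible replicate 2 alone (0.91, edgeR adjusted p 0.0185). In the 15 D2 libraries alone the Sst slope was 0.57 (edgeR adjusted p 0.115, with 0.0713% of genes called). In the 15 D1 libraries alone it was 0.33 (edgeR adjusted p 0.0956, with 2.90% of genes called). Vip and Kit had slopes of 0.70 and 0.55 in the D2 libraries and of -0.16 and -0.14 in the D1 libraries, none past the adjustment.

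Th was the 1 member called when a class was fitted alone. In the D1 libraries, where 2.90% of genes passed, its slope on the other-class index was 0.81 (SE 0.178, edgeR adjusted p 0.0201). In the D2 libraries, where 0.0713% passed, it was -0.20 (SE 0.198, edgeR adjusted p 0.983). The difference between those slopes was not tested. In the same D1 libraries its slope on the non-neuronal index was 0.71 (SE 0.211, edgeR adjusted p 0.0578). D1 Control replicate 1 was high in both indices (7.20 and 4.09), as was D1 Susceptible replicate 1 (7.45 and 3.55). D1 Susceptible replicate 1 also held the highest Th level of the D1 libraries, 8.62 CPM. Fits of a class alone were not repeated with a library left out, so how far the D1 slope of Th rested on these libraries was not tested.

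**Figure D3:**
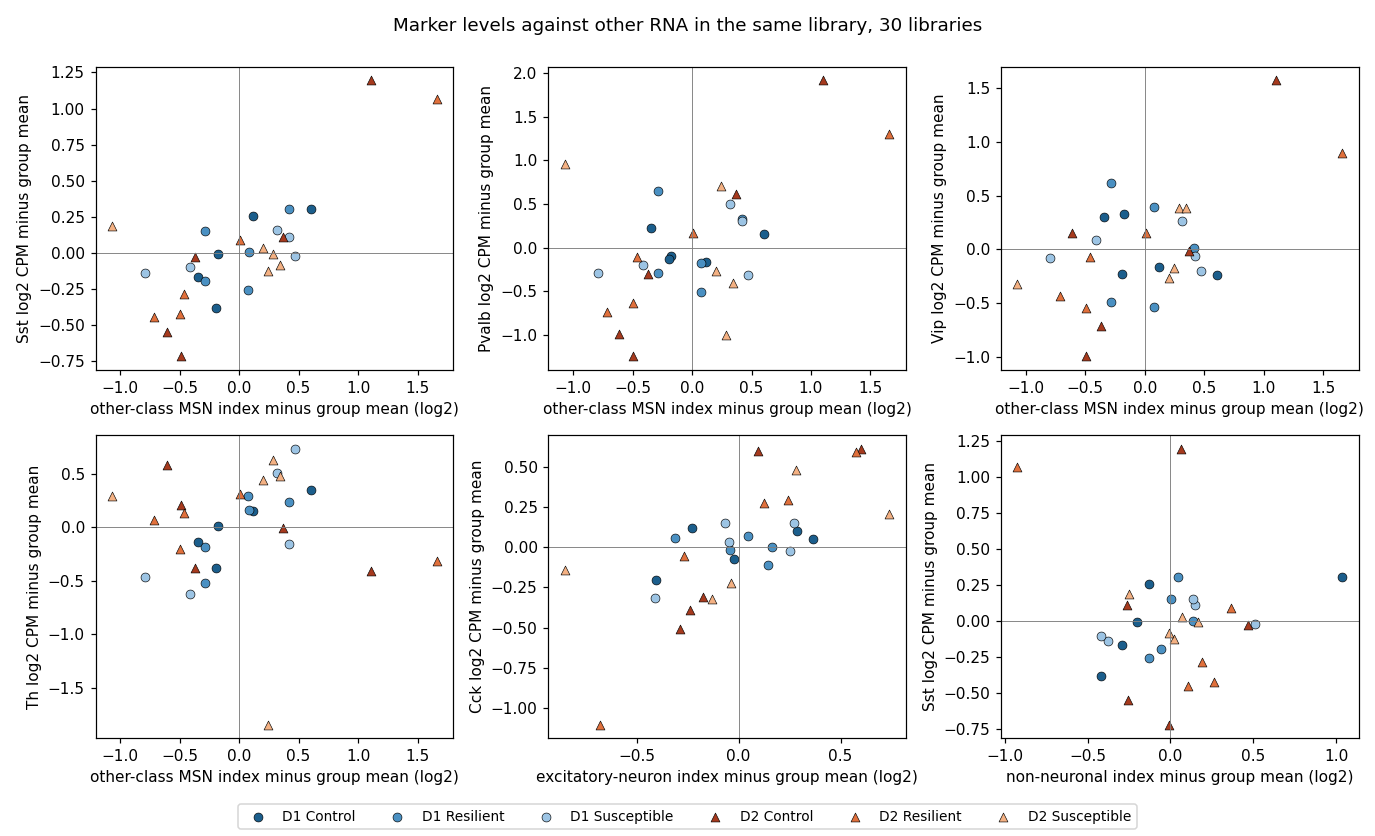
Log2 CPM of a marker minus its group mean (vertical) against an index of other RNA minus its group mean (horizontal, log2), 1 point per library, circles for D1 and triangles for D2, with Sst in 2 of the 6 panels. D2 Control replicate 5 and D2 Resilient replicate 5 lie at the upper right for Sst, Pvalb and Vip, and D2 Susceptible replicate 2 at the far left of those 3 panels.

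In the fit of all 30 libraries no marker followed the non-neuronal index at the threshold by edgeR, while 1.43% of all genes did, and none had an unadjusted p under 0.05. DESeq2 and voom also called none. Slopes ran from -0.39 for Pvalb to 0.41 for Th, and the median was -0.07. For Sst, Npy, Pvalb, Lhx6, Calb2 and Cck this pools slopes of opposite sign in the 2 classes, and for Nos1, Vip, Th and Kit it does not. Pvalb was at 0.25 in the D1 and -1.15 in the D2 libraries alone, and Lhx6 at 0.18 and -0.41. In the D1 libraries alone, where 3.91% of genes passed, Sst was at 0.34, Nos1 at 0.44 and Th at 0.71, with unadjusted p under 0.05 and edgeR adjusted p of 0.0956, 0.116 and 0.0578. The D1 slope of Sst on the other-class index was 0.33. In the D2 libraries alone, where 0.0823% of genes passed, Sst was at -0.69, Nos1 at 0.045 and Th at 0.067, and no member had an unadjusted p under 0.05. The interval for Sst over all 30 libraries was -0.60 to 0.28. For Pvalb, Vip and Lhx6 the intervals reached from -1.12, -0.92 and -0.65 to 0.34, 0.19 and 0.44.

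Cck rose with the excitatory-neuron index, with a slope of 0.67 (SE 0.136, 95% interval 0.39 to 0.94, edgeR adjusted p 0.0132), while 0.573% of all genes passed, the 6 index genes among them. Cck was the 1 member called. Lhx6 had a slope of 0.69 and Th one of -0.56, with unadjusted p under 0.05 and edgeR adjusted p of 0.246 and 0.397. For Sst the slope was -0.00081, with a 95% interval of -0.47 to 0.46, and it was -0.56 in the D1 libraries alone (edgeR adjusted p 0.0754, with 2.33% of genes called) and 0.17 in the D2 libraries alone (edgeR adjusted p 0.968, with 0.0439% of genes called). The Lhx6 value was 0.27 without D2 Susceptible replicate 1, and the Th value was -0.27 without that library. The Cck slope was 0.62 (edgeR adjusted p 0.0564) without D2 Control replicate 5. Without D2 Susceptible replicates 1 and 2 it was 0.92 (edgeR adjusted p 0.00220). Within the D2 libraries it was 0.80 (edgeR adjusted p 0.279) and within the D1 libraries 0.21 (edgeR adjusted p 0.417). With all 3 indices in 1 model the Sst slope on the other-class index was 0.52 (edgeR adjusted p 0.00566), and the Cck slope on the excitatory index was 0.67 (edgeR adjusted p 0.0147).

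**Figure D4:**
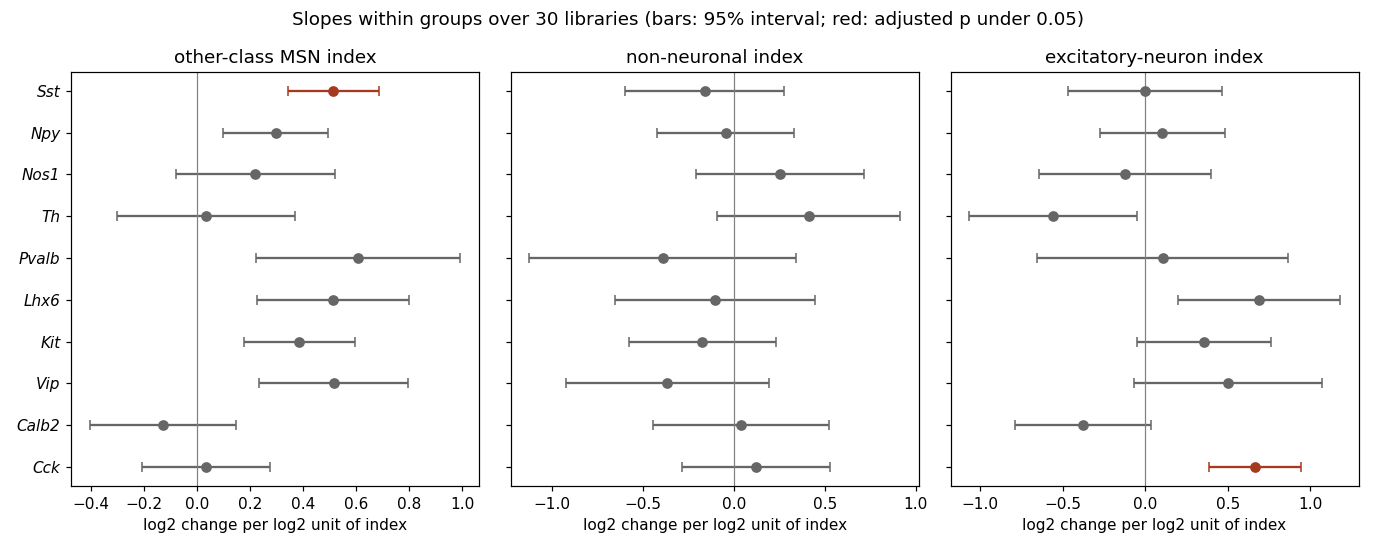
Slope of each marker on each index within groups (horizontal, log2 change per log2 unit), with 95% intervals, in red where the adjusted p was under 0.05. Sst on the other-class MSN index (0.51) and Cck on the excitatory-neuron index (0.67) are the 2 called slopes.

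Stress group was compared within each class, and Control is shared by 2 comparisons of a class. In D1, 0 of the 10 passed in Susceptible against Control, Resilient against Control or Susceptible against Resilient by edgeR, and 0% of all genes passed in each. No member had an unadjusted p under 0.05 there, and DESeq2 and voom called none. The values ran from -0.49 (Pvalb) to 0.17 (Nos1) in Susceptible against Control, with 9 of 10 below 0 and a median of -0.38, against -0.0115 over all genes. They ran from -0.30 (Kit) to 0.23 (Pvalb) in Resilient against Control. The 95% interval of Kit in Susceptible against Control was -0.95 to 0.03, and its level was 16.8 ± 2.63 CPM in D1 Susceptible and 23.1 ± 3.10 CPM in D1 Control (SD, n = 5).

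In D2, 0 of the 10 passed in Susceptible against Control by edgeR, where 0.00516% of all genes passed. DESeq2 called 1 (Vip) and voom 0. All 10 values were below 0, with a median of -0.66 against -0.0343 over all genes, and 7 had an unadjusted p under 0.05 (3038 of all genes did). Those were Vip at -1.997, Pvalb at -1.20, Sst at -0.88, Npy at -0.75, Cck at -0.70, Kit at -0.63 and Calb2 at -0.58. The other 3 were Nos1 at -0.47, Th at -0.35 and Lhx6 at -0.19. Without D2 Susceptible replicates 1 and 2, Nos1 was at 0.0043, and without D2 Control replicate 5, Lhx6 was at 0.20. Pvalb was at -1.93 without D2 Susceptible replicates 1 and 2. Without D2 Control replicate 5 Sst was at -0.45, Npy at -0.37, Pvalb at -0.40 and Kit at -0.39. Without D2 Control replicate 1 Calb2 was at -0.23 and Th at -0.18. Nos1 was at -0.24 and -0.31 without D2 Susceptible replicate 1 and 2, and Th was at -0.11 and Lhx6 at -0.85 without D2 Susceptible replicate 1. Leaving out 1 of the other 8 libraries of the comparison gave Lhx6 values of -0.37 to -0.034.

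The other-class MSN index was lower in the same comparison, at 3.98 ± 0.601 in D2 Susceptible and 5.07 ± 0.726 in D2 Control (SD, n = 5). All 7 D1-class genes were below 0, with a median of -1.01 and none called. Summed, these genes spanned 281 to 637 CPM in D2 Susceptible (median 368) and 344 to 1236 CPM in D2 Control (median 488). D2 Susceptible replicates 1 and 2 held 637 and 516 CPM, above that Control median, though replicate 2 had the lowest index of the D2 libraries (2.91). The excitatory-neuron index was 4.25 ± 0.585 and 4.67 ± 0.366. The non-neuronal index was 4.32 ± 0.155 and 4.31 ± 0.298. The part of these in the marker values was not tested.

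Vip stood out among the D2 values. The D2 Control libraries held 5.47, 2.44, 4.87, 2.98 and 14.7 CPM and the D2 Resilient libraries 2.68, 2.91, 3.76, 4.37 and 7.38 CPM. The D2 Susceptible libraries held 1.31, 1.18, 1.23, 1.94 and 1.96 CPM, from 61 to 133 counts each. All 5 Susceptible libraries lay below the lowest Control and the lowest Resilient library. Vip was the 1 member with this separation in each comparison, and 0.878% and 0.883% of all genes were likewise wholly lower in Susceptible than in Control and than in Resilient. The log2 difference against Control was -1.997 (SE 0.359, 95% interval -2.73 to -1.26, edgeR adjusted p 0.0526), which missed the threshold. Over 19 alternatives it was -2.21 to -1.31, with an adjusted p of 1.34e-05 (DESeq2) to 0.821 (edgeR on those 2 groups alone), and it passed in 7 of them. Without D2 Control replicate 5 it was -1.37 (edgeR adjusted p 0.181). Without D2 Control replicate 2 or 4 or D2 Susceptible replicate 3, 4 or 5 it passed (edgeR adjusted p 0.0117, 0.0199, 0.0332, 0.0343 and 0.0280).

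Against Resilient, 0 of the 10 passed in D2 by edgeR, where 0.0516% of all genes passed. An unadjusted p under 0.05 by edgeR was found for 3 members and for 3693 of the 19368 genes tested. Vip was at -1.46 (SE 0.357, edgeR adjusted p 0.0586), Calb2 at -0.81 (edgeR adjusted p 0.110) and Nos1 at -0.66 (edgeR adjusted p 0.188). Vip passed with DESeq2 (adjusted p 0.00410), and by edgeR without D2 Susceptible replicate 3, 4 or 5 (edgeR adjusted p 0.0266, 0.0390 and 0.0199), while voom called none. In D2 Resilient against Control 0 passed by edgeR, DESeq2 and voom, and 0% of all genes passed by edgeR. There 1 member, Cck at -0.53, had an unadjusted p under 0.05 (814 of all genes did). The median of the 10 was -0.43.

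The test of whether the D1 change differed from the D2 change called 0 of the 10 in any of its 3 forms by edgeR, DESeq2 or voom, with 0% of all genes called by edgeR. For Vip the D1 minus D2 change was 1.56 in Susceptible against Control (SE 0.487, 95% interval 0.56 to 2.55, edgeR adjusted p 0.637) and 1.28 in Susceptible against Resilient (SE 0.488, edgeR adjusted p 0.295). It was the 1 member with an unadjusted p under 0.05 in both, and in Resilient against Control there was none. Libraries labelled as separate pools of mice are the replicates, so these p-values measure the spread between pools.

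**Figure D5:**
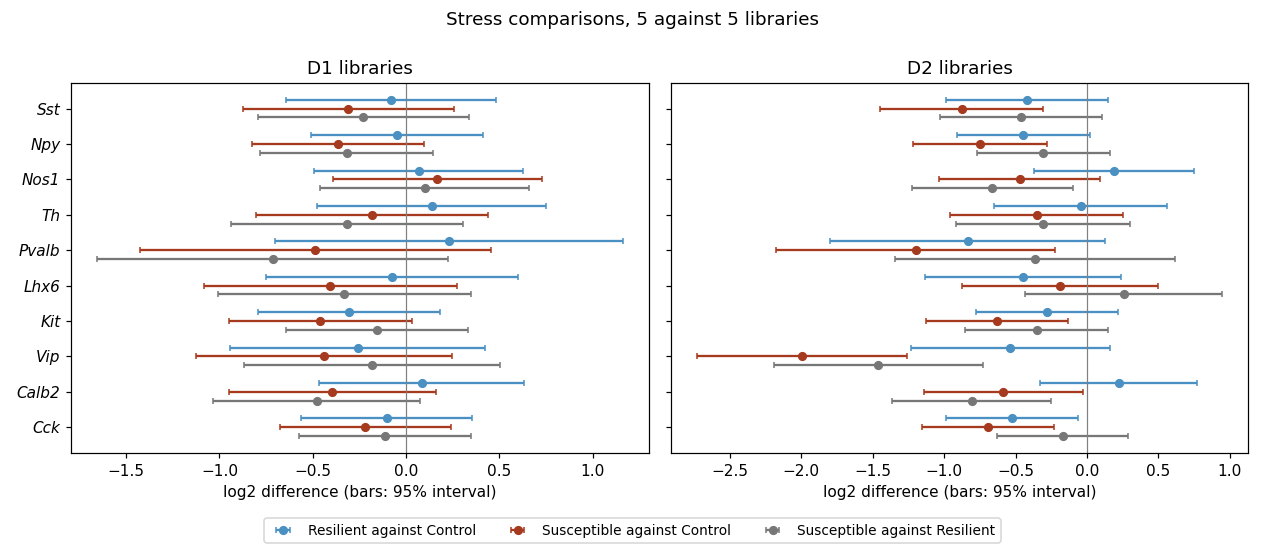
Log2 difference of each marker in the 3 stress comparisons (horizontal, with 95% intervals) in D1 (left) and D2 (right) libraries, 5 against 5. None passed the adjusted threshold, and Vip in D2 Susceptible lies at -1.997 against Control and -1.46 against Resilient.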

How the data were processed

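The authors deposited raw counts of reads per gene for 30 libraries and 55335 genes, with lines for reads not assigned to a gene that end each file. These lines, 10.1% to 53.3% of a library, stayed out of library sizes and tests. HISAT2, HTSeq, GRCm38 and mm10 are named in the submitters' processing notes. No version, annotation release or strand setting is given in the sources used here. Each library was made from 10 ng of RNA with the SMART-Seq v4 kit, per the labels' protocols.

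Identifiers were matched to GENCODE M21 (55154 with a symbol, 181 without). Genes passing filterByExpr (minimum count 10, minimum total 15) numbered 19368, and 35967 were set aside. TMM-scaled counts were tested in 1 model of the 6 groups with edgeR 4.0.16 (quasi-likelihood F test, robust) in R 4.3.3, with Benjamini-Hochberg adjustment across the 19368 genes of each of 16 comparisons and a threshold of 0.05. Slopes add 1 index, centred within groups. Indices and correlations use log2 CPM with a prior count of 2. The self-test on simulated counts ran for a class comparison and a slope. Alternatives were DESeq2 1.42.0, its size factors within edgeR, no filter, voom with quality weights (limma 3.58.1), a replicate block, only the groups compared, each class alone, all indices together and each library left out. Omissions of D2 Susceptible 1 and 2, of these with D1 Susceptible 1 and D2 Resilient 5, and of D2 Control 5 and D2 Resilient 5 were added after the data were seen.

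The members and lists were chosen with earlier results of these data known. All members are named. From each list, up to 3 genes per direction with the smallest adjusted p under 0.05 are named, with Drd1, Pdyn, Tac1, Drd2, Adora2a and Penk as label checks and the 2 genes nearest each member. Some genes of these lists are not reported here. Promoters come from RefSeq (GRCm38.p6). Figures used matplotlib and pandas. Intervals cover the spread between libraries, and a count of 0 allows up to 3 counts. Male and human data were not analysed here.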

Additional observations from a re-analysis of the deposited data

Results flagged for a closer look

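In 60 sets of 5 libraries (10 genes in 6 groups), 8 had a library far from the other 4 by Dixon's criterion. For independent, normally distributed values this happens in about 1 in 20 sets. The 60 sets share the same 30 libraries and several genes varied together, so the count of 8 cannot be set against that rate. D2 Control replicate 5 was high for Sst (188 CPM, others 49.8 to 88.4), Npy (42.6 CPM, others 14.8 to 21.5) and Vip (14.7 CPM, others 2.44 to 5.47). D2 Resilient replicate 5 was high for Sst (133 CPM, others 46.4 to 67.4) and Pvalb (5.43 CPM, others 1.29 to 2.44). These 2 libraries also had the highest other-class MSN index of the D2 libraries (6.18 and 6.66). D2 Resilient replicate 1 was high for Calb2 (26.1 CPM, others 15.8 to 17.1). D2 Susceptible replicate 1, the library with the fewest genes detected, was low for Th (2.43 CPM, others 10.8 to 13.7) and high for Lhx6 (10.8 CPM, others 2.30 to 3.24). No D1 library was far from its group in this way for any of the 10 genes.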

How the results depend on the processing

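Over the alternatives run, all 10 markers stayed called for the class difference over 3 conditions, and member counts within conditions stayed at 6 to 9 in Control (main 7), 7 to 9 in Resilient (main 7) and 6 to 9 in Susceptible (main 9). D1 stress, D2 Resilient against Control, the 3 differences of change and the non-neuronal slopes stayed at 0 members. In D2 Susceptible against Control and against Resilient, 1 member (Vip) passed with DESeq2, and leaving out 1 library gave 0 to 1. Members called on the other-class index (main 1, Sst) were 1 in the D1 libraries alone (Th and not Sst) and 0 in the D2 libraries alone. They were 4 without D2 Susceptible 1 and 2, 2 without 4 libraries, 0 without D2 Control 5 and D2 Resilient 5, and 0 to 2 with 1 library left out. On the excitatory index they were 0 in the D1 or the D2 libraries alone and without D2 Control 5 and D2 Resilient 5, and 0 to 1 with 1 left out.

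Replicate numbers did not pair libraries: over 75 same-numbered pairs the mean correlation of deviations was -0.0040 (-0.17 to 0.078, 0 over 0.1), and 2 of 30 libraries were most like one of their own number. With the replicate block, Vip passed in D2 Susceptible against Control (1 member, -1.86, edgeR adjusted p 0.00794) and against Resilient (1 member, -1.40, edgeR adjusted p 0.0496), and 0 members passed on the other-class index (Sst 0.48, edgeR adjusted p 0.645).

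Values not called changed sign as follows, and the causes were not tested. In D2 Susceptible against Control, Nos1 was 0.0043 without D2 Susceptible 1 and 2 and 0.0065 without 4 libraries, and Lhx6 was 0.20 without D2 Control 5 and D2 Resilient 5, and -0.85 to 0.20 with 1 library left out (0.20 without D2 Control 5). On the other-class index in the D1 libraries, Vip was -0.16 and Kit -0.14. Th on the other-class index was 0.03 over all 30 libraries, -0.079 with voom and -0.021 to 0.16 with 1 library left out. It was -0.20 in the D2 libraries alone and 0.81 in the D1 libraries alone. Lhx6 on the excitatory index was -0.13 in the D1 libraries. Genes called overall ranged widely: 1318 to 5511 in Control (main 1608), 1130 to 3412 in Resilient (main 1288), 915 to 5406 in Susceptible (main 4621), 0 to 255 in D2 Susceptible against Control (main 1) and 0 to 976 against Resilient (main 10), over alternatives other than leaving out 1 library. Without D2 Susceptible 3 the last 2 counts were 828 and 1964. The lowest count of any marker in a library was 55 (Pvalb in D2).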
